A study of Mus musculus with 6 samples.

Results

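Nuclear-encoded oxidative phosphorylation genes were taken from the expression table by their gene symbols: Nduf for complex I, Sdh for complex II, Uqcr and Cyc1 for complex III, Cox for complex IV and Atp5 for complex V, which is the ATP synthase. The symbols picked out 81 of the 18465 genes listed, with 37 in complex I, 4 in complex II, 9 in complex III, 14 in complex IV and 17 in complex V. RefSeq annotates 80 of them as protein-coding and Cox6c2 as a pseudogene. Subunits with another kind of symbol, such as Ndufab1, were not picked up.

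RNA came from SLAM-LSK cells of mouse bone marrow, the sorted fraction in which blood stem cells are enriched (lineage markers and CD48 absent; CD150, Sca-1 and c-Kit present). A group of 3 libraries came from wild-type C57BL/6 mice (WT), and 3 came from C57BL/6 mice with 1 copy of the R751W allele of Mecom and 1 wild-type copy (MecomWT:R751W). Mecom encodes a zinc-finger transcription factor that stem cells need for their maintenance. The labels name no treatment in either group, and the mice's age is not stated in the labels. The labels name biological replicates without tying each one to a separate mouse, so the tests measure the spread between these libraries.

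Oxidative phosphorylation couples the transfer of electrons from NADH and succinate to oxygen, along complexes I to IV, to the pumping of protons, and complex V uses the proton gradient to make ATP. Most subunits of these complexes are encoded in the nucleus and imported into mitochondria, while a small set of hydrophobic core subunits is encoded by mitochondrial DNA; complex II alone is wholly nuclear-encoded. Blood stem cells at rest are known for relying little on this route and for engaging it when they leave quiescence.

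Values are TPM, reads per unit of gene length, expressed per constant sum of all genes in a library. Levels can be compared between genes only as far as the gene lengths used, which are not given, match the transcripts. The reads implied by the TPM ratios came to between 10427533 and 12378149 per library, and a member gene had a median of 1791 reads over the 6 libraries together, from 119 to 29333. The 12 stem cell markers looked for were all listed, with summed levels of 532 to 604 TPM in WT and 499.5 to 599.8 TPM in MecomWT:R751W libraries. Of the markers of other cells, 1 of 9 B cell, 2 of 10 T and NK cell, 5 of 12 myeloid and 1 of 7 mast cell genes were listed. More of the others were, with 8 of 10 erythroid, 7 of 8 megakaryocyte and 5 of 9 stromal genes. The listed myeloid genes summed to 99.7 to 123.9 TPM in WT and 88.3 to 113.2 TPM in MecomWT:R751W. Sums of the erythroid and megakaryocyte genes, also above 100 TPM, are given further on. Mecom itself averaged 38.2 ± 4.17 TPM over the WT libraries and 45.0 ± 5.53 TPM over the MecomWT:R751W libraries (SD, n = 3), and a gene total cannot separate its alleles. Protein-coding genes made up 25.9% and 26.0% of TPM in replicate 2 of WT and of MecomWT:R751W, against 28.9% to 30.1% in the other 4 libraries.

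The oxidative phosphorylation genes were among the more abundant messages of these cells. Their median level was 41.1 TPM, against 10.9 TPM for all protein-coding genes tested, and the median member stood at the 86.5th percentile of all genes tested. The range among members was wide: 10 exceeded 100 TPM and 8 lay under 10 TPM, and the highest, Atp5b at 237.7 TPM, was 91.3-fold above the lowest, Atp5g1 at 2.60 TPM.

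The range of levels differed between complexes, but a range also widens with the number of genes, from 4 in complex II to 37 in complex I. In complex II the 4 genes lay within 2.6-fold of each other, from Sdhd at 33.2 TPM to Sdha at 87.3 TPM. Complex III ran over 9.1-fold, from Uqcr10 at 18.2 TPM to Uqcrh at 165.2 TPM. Complex I ran over 35.7-fold, from Ndufa7 at 3.10 TPM to Ndufa6 at 110.6 TPM. Over the 6 libraries Ndufa7 had 715 reads and Ndufa6 2962, on longest annotated coding transcripts of 528 and 590 bases. The reads of the 2 genes differed far less than their TPM, so the length used for Ndufa7 was much longer than that for Ndufa6. The 35.7-fold range of complex I and the place of Ndufa7 as its lowest gene therefore depend in large part on that length. Its value is not given. Complex IV ran over 63.7-fold, from Cox4i2 at 3.01 TPM to the pseudogene row Cox6c2 at 191.7 TPM. Complex V held both extremes of the whole set. The order of levels was nearly the same in both genotypes, with a Spearman rho of 0.987 across the 81 genes, which share their gene lengths and annotation between groups and are not independent replicates. The plot of levels by complex shows this ladder of values.

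**Figure D1:**
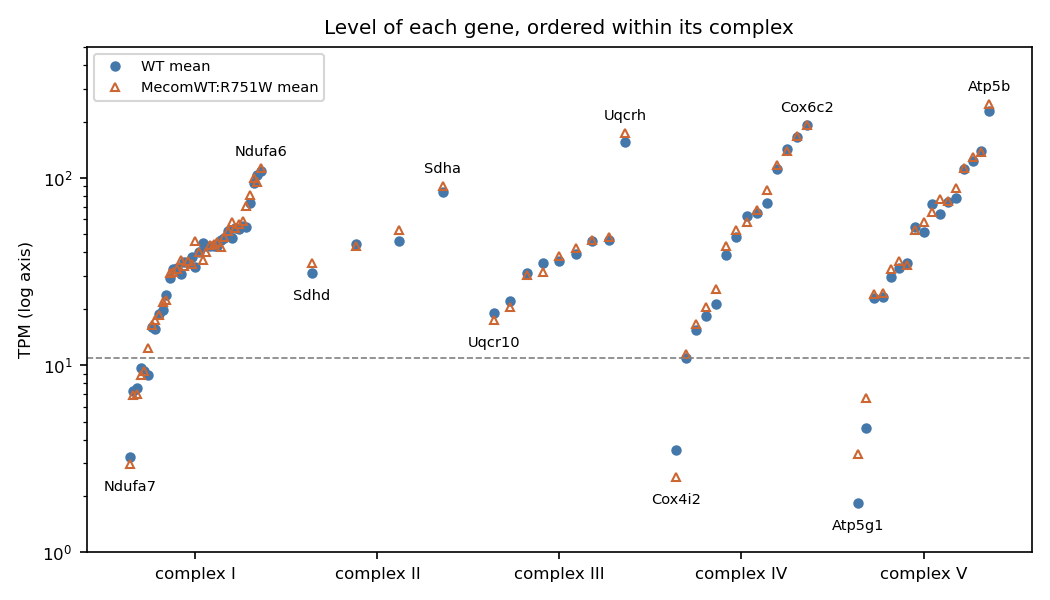
Mean TPM of each of the 81 genes (log axis), ordered from low to high within each complex, with circles for the 3 WT and triangles for the 3 MecomWT:R751W libraries; the dashed line is the median protein-coding gene tested, 10.9 TPM. Most genes lie above the line, the 2 means of a gene lie close together, and the named genes are the lowest and highest of each complex.

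The mitochondrially encoded subunits, which join the same complexes, stood higher still. The 13 of them, counted under their RefSeq names, ranged from 231 TPM to 2234 TPM with a median of 1164 TPM. The library protocol was one of several kits listed by input amount, and which was used is not given, so how far mitochondrial and nuclear messages are captured alike was not tested.

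Promoter sequences (RefSeq, GRCm38.p6, the assembly also called mm10) were matched for 66 of the 81 genes, in 71 windows running from 250 bases before to 50 bases after the start. The motif of nuclear respiratory factor 1, a transcription factor known for binding promoters of respiratory chain genes, was searched as GCGCANGCG on both strands, with N for any base. It was present in 21 of 71 windows (29.6%), against 13.6% of the 11713 windows of protein-coding genes tested and 6.2% of all 32851 windows. The ETS core CCGGAAG, bound by GABPA among others, was in 23.9% of the members' windows against 18.3% and 8.9% of the same sets, and the YY1 motif AAGATGGCG in 9.9% against 3.1% and 1.4%. In the members' windows 0 matches of 1 motif overlapped a match of another. At least 1 motif was found in 36 of the 66 genes, and 6 genes had both the NRF1 and the ETS motif. For scale, the windows of mitochondrial ribosomal protein genes held the 3 motifs in 21.3%, 34.7% and 10.7%. A match describes the letters of the window, not a bound site.

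The stretches upstream of the start printed here belong to members with such a match, chosen after their values were seen: Ndufa5, the subunit of smallest p, Ndufs5, with a fitted fold beyond 1.2, the c-ring gene Atp5g2, Atp5c1, whose groups did not overlap, and, for their repeated matches or their complex, Sdha, Sdhd and Cox6a1. Each is printed 5′ to 3′ along the gene's own strand, which is the minus strand in every case, with the NRF1 matches in capitals.
Ndufa5, complex I, chr6:24527691-24527741, bases -51 to -1: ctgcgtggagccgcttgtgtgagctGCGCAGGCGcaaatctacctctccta
Ndufs5, complex I, chr4:123718251-123718309, bases -123 to -65: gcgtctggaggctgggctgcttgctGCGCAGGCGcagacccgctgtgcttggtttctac
Sdha, complex II, chr13:74350241-74350363, bases -123 to -1: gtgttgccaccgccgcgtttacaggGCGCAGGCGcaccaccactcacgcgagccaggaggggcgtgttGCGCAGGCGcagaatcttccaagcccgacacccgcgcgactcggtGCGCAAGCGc
Sdhd, complex II, chr9:50603895-50603953, bases -104 to -46: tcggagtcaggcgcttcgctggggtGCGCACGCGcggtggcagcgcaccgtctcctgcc
Cox6a1, complex IV, chr5:115349042-115349145, bases -187 to -84: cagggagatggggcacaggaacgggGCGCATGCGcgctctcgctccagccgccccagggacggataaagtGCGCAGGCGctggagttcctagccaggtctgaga
Atp5g2, complex V, chr15:102671056-102671114, bases -67 to -9: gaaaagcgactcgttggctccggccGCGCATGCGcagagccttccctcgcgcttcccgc
Atp5c1, complex V, chr2:10080433-10080474, bases -42 to -1: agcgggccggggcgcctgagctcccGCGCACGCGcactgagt
Sdha carries 3 matches within 123 bases and Cox6a1 carries 2, while the others carry 1 in the stretch shown.

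The comparison of genotypes asked whether heterozygosity for Mecom R751W went with another level of these messages. No member differed past the threshold: 0 of the 81 genes had an adjusted p under 0.05 in limma, as did 0% of all 16655 genes tested, those with a mean of at least 1 TPM. All 81 members passed that filter. At an unadjusted limma p under 0.05, 4 members were higher in MecomWT:R751W (4.94%), namely Ndufa5, Ndufc1, Atp5g1 and Atp5g2, against 2.74% of all genes, and 0 members were lower, against 3.23% of all genes. Which members passed this unadjusted threshold changed with the setting. Atp5g1 and Atp5g2 did not pass after rescaling to the protein-coding total, Ndufa5 did not without WT replicate 2, WT replicate 3 or MecomWT:R751W replicate 1, and Ndufa4 passed as lower after that rescaling. The groups of 3 did not overlap for 2 members, Ndufa5 and Atp5c1, both higher in MecomWT:R751W, which is 2.47% against 4.5% of all genes; 0 members were lower without overlap, against 4.7% of all genes. The smallest adjusted p of any member was 0.699, for Ndufa5, in limma with Benjamini-Hochberg adjustment. As this is bulk RNA, fewer cells of a type and less RNA per cell cannot be told apart in any of these values.

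The size of the differences was small. On the log2(TPM + 1) scale the median difference of the 81 members, MecomWT:R751W minus WT, was 0.046, and 51 of them (63.0%) lay above 0. Over all genes tested the median was -0.004, and 49.0% lay above 0. The 95% interval of the difference lay within 2-fold in both directions for 79 of the 81 members and within 1.5-fold for 69. Only 8 members had a fitted fold beyond 1.2 in either direction: Ndufa5, Ndufc1, Ndufb1, Ndufs5, Atp5g1 and Atp5g2 upward, and Ndufa4 and Cox4i2 downward; Ndufs5 is named here after its values were seen. Without WT replicate 2 the median of the members was -0.014 and 37 lay above 0, and without WT replicate 1 the median was 0.108 and 61 lay above 0; the median of all genes moved with it, to -0.065 and 0.033.

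**Figure D2:**
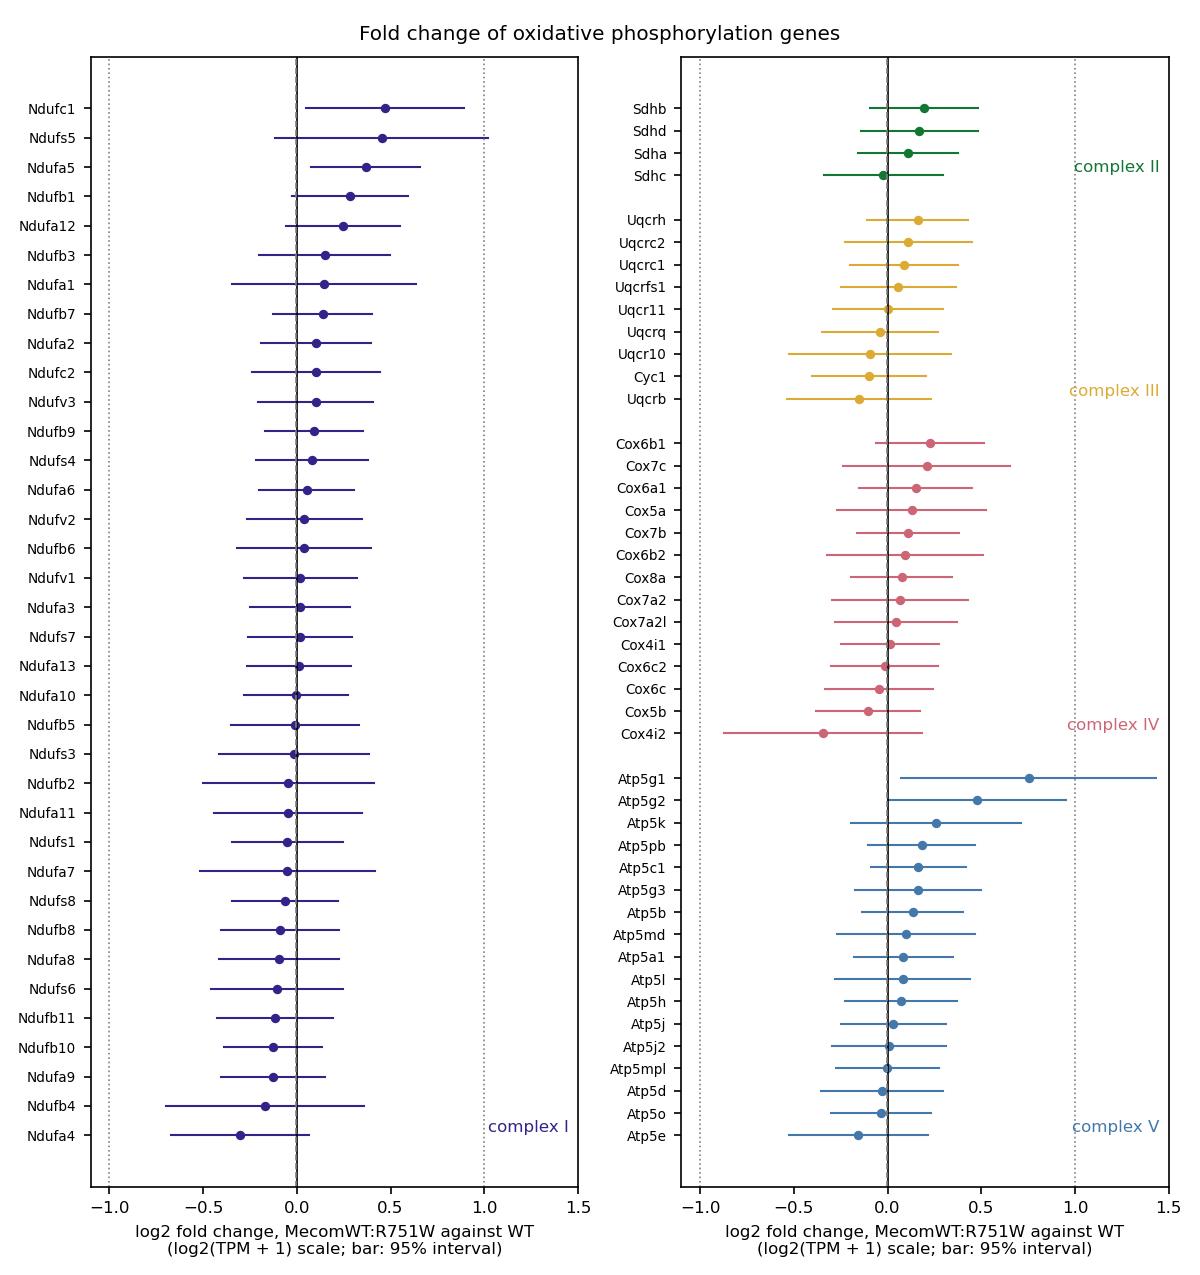
Log2 fold change of 80 of the 81 genes, MecomWT:R751W against WT (3 libraries each), on the log2(TPM + 1) scale, with 95% intervals from limma; dotted lines mark 2-fold and the dashed line the median of all genes, -0.004. The points lie around 0 in all 5 complexes, and intervals that reach past 2-fold belong to Ndufs5 and Atp5g1.

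Complex I takes electrons from NADH. Of its 37 members, 20 lay above 0, with a median difference of 0.02, which was -0.04 without WT replicate 2 and 0.07 without WT replicate 1. The core genes that form its NADH-oxidising end, Ndufv1, Ndufv2 and Ndufs1, lay close to 0, with a median of 0.02. Ndufv1, which binds NADH, had 54.4, 40.3 and 48.8 TPM in WT and 47.9, 45.3 and 51.4 TPM in MecomWT:R751W. The MecomWT:R751W libraries all lay inside the WT range, and the log2 difference was 0.02 (SE 0.14). Ndufs1, the large iron-sulphur subunit, differed by -0.05 (SE 0.14).

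The larger differences of complex I were in accessory subunits, which surround the core. By symbol, 30 of the 37 members are accessory, so most genes that could differ are of this kind. Ndufa5 was at 62.4, 49.9 and 52.2 TPM in the WT libraries and at 79.3, 68.8 and 64.5 TPM in MecomWT:R751W. The lowest MecomWT:R751W library was just above the highest WT library. The difference was 0.37 (SE 0.14) on the log2 scale, a fitted fold of 1.29, with an unadjusted p of 0.0184 and an adjusted p of 0.699 in limma. The difference ran from 0.28 to 0.46 when 1 library was left out at a time. Its transcript shares no stretch of 50 bases with an annotated pseudogene.

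Ndufc1, a small subunit of the membrane arm, was at 35.1, 23.8 and 41.6 TPM in WT and at 49.6, 37.0 and 52.0 TPM in MecomWT:R751W. WT replicate 2 was the lowest of all 6 libraries, and WT replicate 3 was above MecomWT:R751W replicate 2, so the groups overlapped. The log2 difference was 0.47 (SE 0.20), with an unadjusted p of 0.031 and an adjusted p of 0.773 in limma, and it was 0.25 without WT replicate 2. Ndufs5 was at 12.8, 7.65 and 5.95 TPM in WT and at 17.2, 10.8 and 8.88 TPM in MecomWT:R751W. In each group replicate 1 was the highest library, the groups overlapped, and the log2 difference was 0.45 (SE 0.26), with an unadjusted p of 0.109 in limma. Ndufb1, also of the membrane arm, had the next smallest p in complex I after Ndufa5 and Ndufc1, with 41.7, 46.3 and 54.6 TPM in WT and 50.3, 64.4 and 59.3 TPM in MecomWT:R751W. Here the lowest MecomWT:R751W library lay under the highest WT library, and the log2 difference was 0.28 (SE 0.14), with an unadjusted p of 0.07 in limma.

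Ndufa4 showed the largest difference in the other direction in complex I. The protein was first counted to complex I, hence its symbol, and is now assigned to complex IV. It was at 50.7, 37.0 and 46.9 TPM in WT and at 36.5, 28.8 and 43.8 TPM in MecomWT:R751W. MecomWT:R751W replicate 3 lay within the WT range and the other 2 below it. The log2 difference was -0.30 (SE 0.17), with an unadjusted p of 0.0981 and an adjusted p of 0.94 in limma. The highest and the lowest gene of complex I, Ndufa6 and Ndufa7, differed by 0.05 (SE 0.12) and -0.05 (SE 0.22).

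Complex II is succinate dehydrogenase, which also works in the citric acid cycle. Its flavin-bearing subunit Sdha was at 83.8, 79.2 and 88.9 TPM in WT and at 98.1, 81.8 and 92.3 TPM in MecomWT:R751W. The iron-sulphur subunit Sdhb was at 49.8, 40.6 and 48.1 TPM in WT and at 57.2, 47.5 and 54.4 TPM in MecomWT:R751W. For both, MecomWT:R751W replicate 2 lay inside the WT range and the other 2 libraries above it. The log2 differences were 0.11 (SE 0.12) for Sdha and 0.20 (SE 0.13) for Sdhb. The membrane anchors Sdhc and Sdhd, which hold the heme and bind quinone, differed by -0.02 (SE 0.15) and 0.17 (SE 0.14). The median of the 4 was 0.14, from 0.07 without WT replicate 2 to 0.22 without MecomWT:R751W replicate 2, and none had an unadjusted p under 0.05 in limma.

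Complex III passes electrons from quinol to cytochrome c. Of its 9 members, 5 lay above 0, and the median difference was 0.00, from -0.08 without MecomWT:R751W replicate 1 to 0.06 without WT replicate 1. The Rieske iron-sulphur protein Uqcrfs1 was at 55.1, 42.9 and 42.4 TPM in WT and at 51.2, 43.1 and 51.4 TPM in MecomWT:R751W. Cyc1, its heme-bearing electron acceptor, was at 22.7, 23.3 and 19.8 TPM in WT and at 19.8, 22.7 and 18.7 TPM in MecomWT:R751W. Neither gene separated the groups, with log2 differences of 0.06 (SE 0.14) and -0.10 (SE 0.14). The core protein Uqcrc1 differed by 0.09 (SE 0.13).

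The most abundant gene of complex III, Uqcrh, which encodes the hinge protein that helps to dock cytochrome c, also had its largest positive difference. It was at 165.5, 146.9 and 155.0 TPM in WT and at 185.1, 183.4 and 155.2 TPM in MecomWT:R751W. MecomWT:R751W replicate 3 lay in the WT range, and the log2 difference was 0.16 (SE 0.12). Uqcrb had the largest negative one, -0.15 (SE 0.18), and Uqcr10, the lowest gene of the complex, differed by -0.09 (SE 0.20).

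Complex IV, cytochrome c oxidase, has subunits that exist as tissue isoforms. Of its 14 members, 10 lay above 0, with a median difference of 0.07, which was 0.00 without MecomWT:R751W replicate 1 and 0.13 without MecomWT:R751W replicate 2. The ubiquitous Cox4i1 was at 179.0, 155.6 and 161.1 TPM in WT and at 168.6, 153.7 and 177.6 TPM in MecomWT:R751W. Its isoform Cox4i2, known from lung and from cells short of oxygen, was at 2.75, 2.66 and 5.09 TPM in WT and at 3.37, 2.44 and 1.74 TPM in MecomWT:R751W, from 12 to 36 reads per library. The largest negative difference of the set was that of Cox4i2, -0.34 (SE 0.24), but WT replicate 3 was the high library, and the difference was -0.10 without it. Cox4i1 differed by 0.01 (SE 0.12).

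Cox4i2 made up 2.09% ± 0.85 of the 2 isoforms' TPM in WT and 1.50% ± 0.50 in MecomWT:R751W (SD, n = 3). The isoform known from testis, Cox6b2, made up 17.4% ± 3.63 of Cox6b TPM in WT and 16.1% ± 2.92 in MecomWT:R751W. Cox7a2 made up 14.5% ± 2.47 of its TPM together with Cox7a2l in WT and 14.7% ± 2.61 in MecomWT:R751W. Cox7a2l is a paralog known from work on supercomplexes of complexes III and IV, which were not measured in these mice. Each of these shares differed between genotypes by less than the SD of the WT libraries. For Cox4i2 the difference exceeded the SD of the MecomWT:R751W libraries, and WT replicate 3 was the high library at 3.06%. The isoforms known from heart and skeletal muscle, Cox6a2, Cox7a1 and Cox8b, were looked for and were not among the genes listed, so they have no values here.

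Among the remaining complex IV genes of the rule, Cox6b1 had the largest positive difference. It was at 79.5, 63.6 and 77.4 TPM in WT and at 95.1, 85.0 and 78.1 TPM in MecomWT:R751W. MecomWT:R751W replicate 3 lay under the highest WT library, and the log2 difference was 0.23 (SE 0.13), with an unadjusted p of 0.114 in limma. Cox6a1, Cox8a, Cox7a2, Cox7a2l and Cox6b2 differed by 0.15, 0.08, 0.07, 0.05 and 0.09, with SEs from 0.125 to 0.193. Cox6c2, the row annotated as a pseudogene, held 57.3% ± 3.83 of the TPM it shared with Cox6c in WT and 57.9% ± 1.44 in MecomWT:R751W, and it differed by -0.02 (SE 0.13).

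Complex V held 17 members, of which 13 lay above 0, with a median difference of 0.09, which was 0.02 without WT replicate 2 and 0.16 without WT replicate 1. In its catalytic F1 head the alpha subunit gene Atp5a1 was at 135.8, 112.2 and 120.2 TPM in WT and at 136.2, 125.9 and 127.7 TPM in MecomWT:R751W. The beta subunit gene Atp5b was at 250.4, 204.9 and 225.3 TPM in WT and at 256.9, 233.0 and 255.5 TPM in MecomWT:R751W. WT replicate 2 was the lowest library for both, and the log2 differences were 0.09 (SE 0.12) and 0.13 (SE 0.12). Atp5a1 had from 4484 to 5219 reads per library and Atp5b from 3164 to 4034, the deepest counts of the set.

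Atp5c1 encodes gamma, the shaft that turns inside the F1 head. It was at 81.6, 75.1 and 78.9 TPM in WT and at 92.2, 82.9 and 89.5 TPM in MecomWT:R751W. Every MecomWT:R751W library was above every WT library. The log2 difference was 0.16 (SE 0.12), with an unadjusted p of 0.182 in limma. Atp5e, which encodes epsilon at the foot of that shaft, had the largest negative difference of complex V, -0.16 (SE 0.17).

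The 3 genes of the c-ring, the rotor that protons turn, encode the same mature protein. Atp5g3 was the highest of the 3 gene rows, with 35.2, 24.7 and 28.3 TPM in WT and 37.4, 30.8 and 30.2 TPM in MecomWT:R751W. Its log2 difference was 0.16 (SE 0.16). Atp5g1 was at 3.34, 1.71 and 0.467 TPM in WT and at 3.47, 3.77 and 2.86 TPM in MecomWT:R751W, from 4 to 30 reads per library. Atp5g2 was at 4.53, 6.21 and 3.06 TPM in WT and at 7.50, 5.43 and 6.99 TPM in MecomWT:R751W, from 17 to 38 reads per library. Both Atp5g1 and Atp5g2 were lowest in WT replicate 3, and in each of them the groups overlapped. In limma the log2 differences were 0.75 (SE 0.31, unadjusted p 0.0323, adjusted p 0.776) for Atp5g1 and 0.48 (SE 0.22, unadjusted p 0.0483, adjusted p 0.829) for Atp5g2. Without WT replicate 3 they were 0.34 and 0.26. With a pseudocount of 5 in place of 1 they were 0.31 and 0.29, and with 0.1 they were 1.18 and 0.56. Atp5g3 held 82.1% ± 6.62 of the TPM of the 3 gene rows in WT and 76.6% ± 1.02 in MecomWT:R751W (SD, n = 3). Pseudogene rows that share sequence with Atp5g1 and Atp5g2 averaged 33.6 and 41.4 TPM and are not counted in this share. The order of the 3 genes therefore depends on how shared reads were assigned, which is not known.

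**Figure D3:**
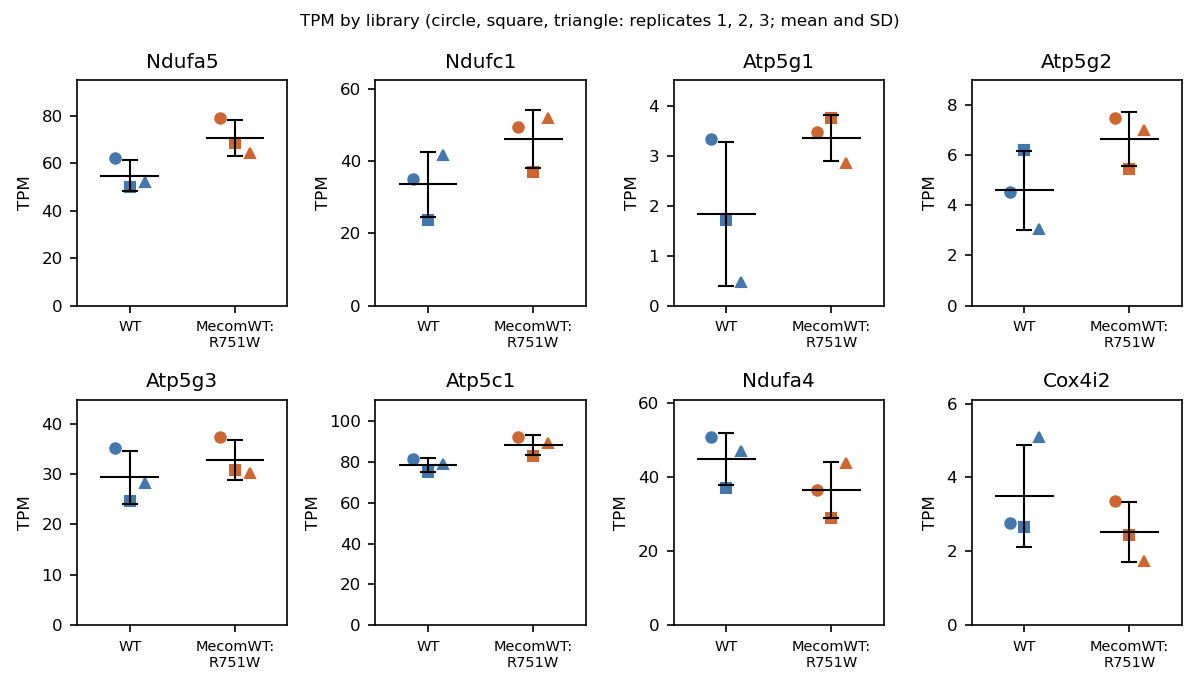
TPM in each library for 8 genes, with circles, squares and triangles for replicates 1, 2 and 3 and bars for the mean and SD of each group (n = 3). The groups do not overlap for Ndufa5 and Atp5c1; Atp5g1 is lowest in WT replicate 3 at 0.467 TPM, and Cox4i2 is highest there at 5.09 TPM.

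Many of these genes have processed pseudogenes, copies of the spliced message in the genome, whose reads may not be told apart from those of the gene. Of 77 members matched to a GENCODE M21 transcript, 46 shared no stretch of 50 bases with an annotated pseudogene, 31 shared at least 1, and 14 shared over 10% of their stretches. The table lists 40 pseudogene rows that share sequence with 24 of the members. For 9 members the pseudogene rows together were higher than the gene. Atp5h, a stalk subunit gene, was at 23.8 TPM and its 3 pseudogene rows at 220.8 TPM, and Uqcrb was at 33.3 TPM and its 4 rows at 174.2 TPM. Atp5l, which shares 68.5% of its stretches with pseudogenes, was at 34.5 TPM beside 121.0 TPM in 9 rows. The level of such genes is therefore uncertain; Atp5h, Atp5l, Ndufb4 and the other genes of this paragraph outside the rule for named genes were chosen after their values were seen.

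The c-ring genes Atp5g1 and Atp5g2 belong to this class. Atp5g1 had 2 pseudogene rows, with 34.4, 32.5 and 38.3 TPM together in WT and 36.4, 28.4 and 31.3 TPM in MecomWT:R751W, 12.9 times the gene's own mean. Atp5g2 had 2 rows that were together 7.36 times its own mean. When gene and pseudogene rows were summed, the log2 difference of Atp5g1 was -0.06, from 0.75 for the gene alone, and that of Atp5g2 was 0.01, from 0.48. For Atp5c1, whose 2 pseudogene rows came to 24.8 TPM, it was 0.15, near the 0.16 of the gene alone. Ndufb4, a complex I gene at 7.27 TPM beside a pseudogene row at 42.8 TPM, differed by 0.05 when summed and by -0.17 alone. In the sums of Atp5g1, Atp5g2 and Ndufb4 the pseudogene rows made up most of the TPM. Such sums lie near the pseudogene difference whatever the gene does, so they cannot show whether the gene itself differed. Atp5g1 shared 9.1% of its stretches with pseudogenes and Atp5g2 11.1%. Over the whole set the median difference was 0.06 for the 14 members with over 10% of stretches shared and 0.04 for the 46 with none, and the median levels were 33.5 TPM and 43.5 TPM.

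**Figure D4:**
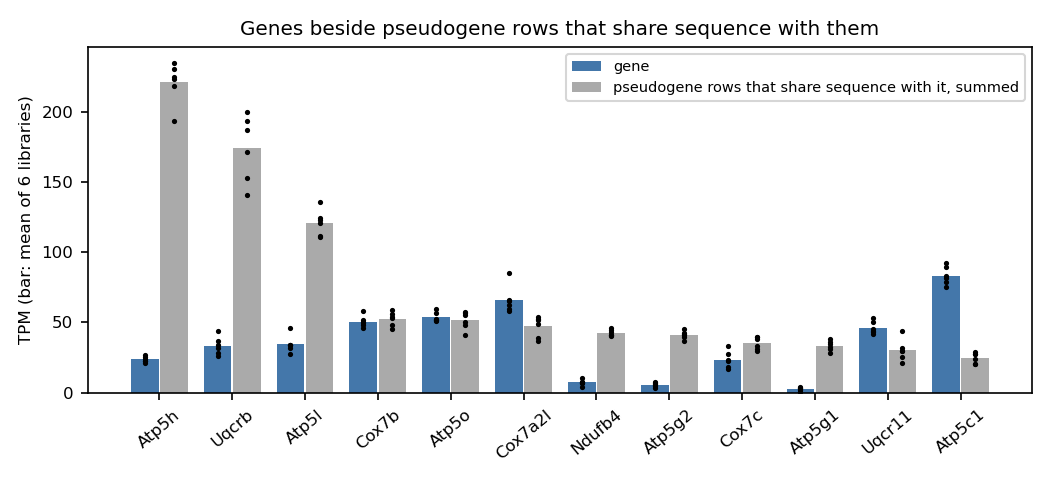
Mean TPM over 6 libraries of the genes beside the summed TPM of pseudogene rows that share at least 1 stretch of 50 bases with them, for the 12 genes with the most pseudogene TPM; dots are the 6 libraries. The pseudogene rows of Atp5h, Uqcrb and Atp5l stand above 100 TPM, each above its gene.

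Summed over all 81 genes, the messages took 0.450%, 0.385% and 0.428% of all TPM in the WT libraries 1, 2 and 3, and 0.461%, 0.421% and 0.433% in those of MecomWT:R751W. These ranges overlapped, and WT replicate 2 was the lowest library for 34 of the 81 genes. That library also had the lowest protein-coding share of TPM among WT, and it was the lowest for 35.0% of protein-coding genes tested. MecomWT:R751W replicate 2 was the lowest library for 39.5% of protein-coding genes but for 12 of the 81 members (14.8%).

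Set against the protein-coding total of the same library, the 81 genes came to 1.493%, 1.490% and 1.481% in WT and to 1.550%, 1.619% and 1.500% in MecomWT:R751W. The means were 1.488% ± 0.00625 and 1.556% ± 0.0598 (SD, n = 3), and the lowest MecomWT:R751W library was just above the highest WT library. Without the pseudogene row Cox6c2 the values were 1.434%, 1.419% and 1.405% in WT and 1.478%, 1.548% and 1.440% in MecomWT:R751W, again without overlap. With all 81 genes, the nearest libraries of the groups, at 1.493% and 1.500%, lay close together beside the spread within MecomWT:R751W. The difference between the group means of this sum was not tested. By complex, the groups were apart for complex I, with 0.516%, 0.514% and 0.515% in WT and 0.519%, 0.559% and 0.526% in MecomWT:R751W, and for complex II, with 0.074%, 0.071% and 0.073% in WT and 0.079%, 0.077% and 0.080% in MecomWT:R751W. They overlapped for complexes III, IV and V. Complex III had 0.145% to 0.157% in WT and 0.148% to 0.167% in MecomWT:R751W. The nearest complex I libraries, at 0.516% and 0.519%, lay close together beside the spread within MecomWT:R751W. Without this rescaling the summed TPM overlapped for complex I, with 1329 to 1553 in WT and 1454 to 1544 in MecomWT:R751W. The same held for complex II, with 184 to 222 and 201 to 234. Of the protein-coding total, the 78 mitochondrial ribosomal protein genes took 0.503%, 0.488% and 0.491% in WT and 0.503%, 0.525% and 0.515% in MecomWT:R751W.

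**Figure D5:**
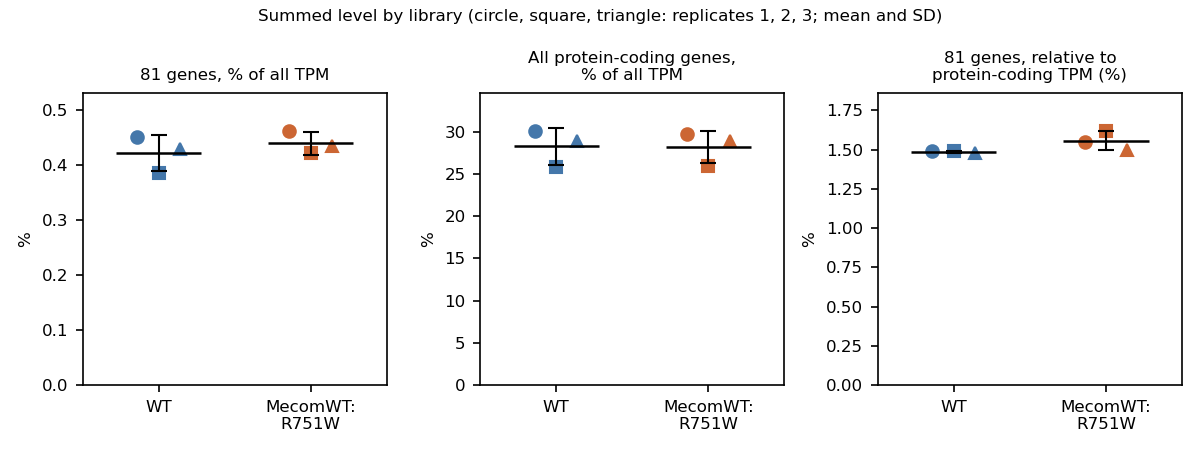
Left, the 81 genes as a percent of all TPM; middle, all protein-coding genes as a percent of all TPM; right, the 81 genes relative to protein-coding TPM in percent, with circles, squares and triangles for replicates 1, 2 and 3 and bars for mean and SD (n = 3). The groups overlap on the left; on the right WT lies between 1.481% and 1.493% and MecomWT:R751W between 1.500% and 1.619%.

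The wider machinery of respiration was read from lists of genes that serve it. The mitochondrial ribosomal proteins, which make the mitochondrially encoded subunits, had a median difference of 0.06 with 53 of 78 above 0 (67.9%); 3 had an unadjusted limma p under 0.05, all higher in MecomWT:R751W, and none an adjusted one. That is 3 of 78, against 2.74% of all genes in this direction. Mrpl38 averaged 22.3 ± 4.37 TPM over the WT libraries and 30.9 ± 3.56 TPM over the MecomWT:R751W libraries (SD, n = 3), a log2 difference of 0.46 (SE 0.16). The 13 mitochondrially encoded subunits had a median of 0.02, with 9 above 0; ND4L, a proton-pumping subunit of complex I, differed most, by -0.22 (SE 0.13). Relative to protein-coding TPM these 13 genes came to 5.58% to 5.76% in WT and 5.62% to 5.90% in MecomWT:R751W.

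Assembly factors, which help to build the complexes without staying in them, showed no common direction: 24 of 46 lay above 0 and the median was 0.01. Sdhaf1, which inserts iron-sulphur clusters into Sdhb, averaged 14.9 ± 4.09 TPM with WT and 10.4 ± 2.08 TPM with MecomWT:R751W, a log2 difference of -0.46 (SE 0.20) with an unadjusted p of 0.0394 and an adjusted p of 0.797 in limma. Of the 14 genes for the electron carriers coenzyme Q and cytochrome c, 8 lay above 0, and Coq10b, a coenzyme Q chaperone, differed by -0.76 (SE 0.35, adjusted p 0.825 in limma). The citric acid cycle and pyruvate dehydrogenase genes, 17 in all, had a median of 0.02, with 11 above 0. Of the carriers and channels for phosphate and adenine nucleotides, 4 of 6 lay above 0, with a median of 0.03.

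The transcriptional regulators of these genes were also close to equal between genotypes, with 5 of the 12 tested above 0 and a median of -0.01. Nrf1 averaged 8.78 ± 0.649 TPM with WT and 8.70 ± 0.672 TPM with MecomWT:R751W, a log2 difference of -0.01 (SE 0.15), and Gabpa, an ETS factor, also differed by -0.01 (SE 0.14). Tfam, which packages and transcribes mitochondrial DNA, differed by 0.17 (SE 0.14), and the mitochondrial RNA polymerase Polrmt by 0.21 (SE 0.17). The coactivator Ppargc1a was below the filter, with 0.531 ± 0.144 TPM over the WT libraries and 0.348 ± 0.131 TPM over the MecomWT:R751W libraries. Among the members, the 20 genes with an NRF1 motif had a median difference of 0.08 with 14 above 0, and the 46 without one had a median of 0.05 with 32 above 0; this difference was not tested.

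Of the other cell types, the 2 listed T and NK cell genes summed to 5.61 to 6.29 TPM in WT and 11.1 to 14.1 TPM in MecomWT:R751W, so that every MecomWT:R751W library was above every WT library, while the defining genes Cd3e, Cd3d, Cd3g and Trac were not listed. Nkg7 carried this, with 4.76, 3.89 and 4.30 TPM in WT and from 9.52 to 12.1 TPM in MecomWT:R751W, a log2 difference of 1.197 (SE 0.17, adjusted p 0.0856 in limma), while Lck differed by 0.09. Of the 8 erythroid genes, 7 lay above 0, with a median difference of 0.32. Klf1 and Car1 did not overlap between the groups, as was so for 4.5% of all genes in this direction. Their differences were 0.88 and 1.35, each with an adjusted p of 0.431 in limma. Car1 was at 1.71, 8.93 and 2.69 TPM in MecomWT:R751W, so replicate 2 stood out. The sum of the 8 erythroid genes, 315 to 385 TPM in WT and 306 to 377 TPM in MecomWT:R751W, was mostly Car2. All 7 megakaryocyte genes lay below 0, with a median of -0.12 and overlapping groups for each gene, and they summed to 134 to 156 TPM in WT and 118 to 173 TPM in MecomWT:R751W. The part of such cells in the values of the oxidative phosphorylation genes was not tested.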

How the data were processed

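Bulk RNA-seq of sorted SLAM-LSK cells was analysed in 6 libraries, 3 WT and 3 MecomWT:R751W, grouped by their labels. The authors deposited 1 table of TPM for 18465 genes; per the submitters' processing notes, mm10 and DESeq2 were named, with no role stated. No aligner, counter, strand setting, annotation or read length is named in the sources used here. Each of the 18465 symbols was found in the RefSeq table (GRCm38.p6). Whole reads were implied by the TPM ratios for 100.0% of genes within 0.001 reads and describe depth; the median counting error of a member over a library was 5.8% (CV), against 11.8% and 10.1% between replicates of WT and MecomWT:R751W. These figures cover counting error only.

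The test was limma 3.58.1 (R 4.3.3) with a variance trend on log2(TPM + 1), genotype as the only term, genes averaging 1 TPM or more, two-sided, Benjamini-Hochberg adjustment over 16655 genes. Fold changes on this scale understate those of low genes. The model was run on simulated data with changes of 2-fold or more, which does not bear on differences as small as most of those reported here. Lists are described by counts and medians, without a set test. Stretches of 50 bases were compared with GENCODE M21 pseudogenes. Members, lists and the choice of genes to name were set with earlier results of these data known. The named genes were the core and isoform genes of each complex, the highest, lowest and largest differences per complex, the 6 smallest p, and 2 genes per pathway list. The fit was repeated with 17 other settings (pseudocount, filter, scaling, gene set, weights, block, each library left out) and with 2 chosen after seeing the data, voom on implied reads. The libraries' replicate numbers were checked for pairing (closing section). Values of 1 complex I gene are not reported here.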

Additional observations from a re-analysis of the deposited data

How the results depend on the processing

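No member passed an adjusted p of 0.05 in limma under any of the 17 settings chosen first or the 2 added after seeing the data; the smallest adjusted p of a member was 0.0578, for Atp5g1, with protein-coding rows only. The count over all genes, 0 in the reported fit, was 2 with a filter of 5 TPM, 132 with protein-coding rows only, 1 with array weights, and 50 and 90 with voom on implied reads for all rows and for protein-coding rows, and 0 to 13 with 1 library left out; the cause was not tested. Members at an unadjusted limma p under 0.05, 4 as reported, numbered 7 with rescaling to the protein-coding total (8.64%, against 8.82% of all genes in that setting). They numbered 7 with protein-coding rows only (8.75% against 7.67%) and 7 with array weights (8.64% against 8.6%). With voom on implied reads they numbered 5 for all rows (6.17% against 9.74%) and 5 for protein-coding rows (6.25% against 12.1%). With 1 library left out they numbered 2 to 4. The fits with 2 were those without WT replicate 2, WT replicate 3 or MecomWT:R751W replicate 1 (2.47%, against 5.96%, 6.21% and 6.25% in that order). The fits with 4 had 4.94%, against 4.88% to 6.91%. With the replicate block they numbered 8, with 7 higher and Ndufa4 lower (9.88% against 9.7%), and 0 genes passed the adjusted threshold; same-numbered libraries correlated at 0.14, 0.09 and 0.08 in their deviations from group means, each best with its own number, which does not show a paired design. The median over members stayed between -0.014 and 0.108, and exceeded that of all genes by 0.036 to 0.075 in every setting. All settings drew on the same 6 libraries, so they are not separate support, and this difference of medians was not tested. Over all 81 members the sign turned for 0 to 10 genes by setting, most with array weights, and for 8 to 18 with 1 library left out. Among the named genes, Cox6c2 was 0.00 with quantile normalization, Sdhc 0.01 and Uqcr10 0.09 with array weights. With 1 library left out, the named genes that turned were Atp5e (-0.30 to 0.04), Cox4i1 (-0.03 to 0.07), Cox6b2 (-0.08 to 0.28), Cox6c2 (-0.10 to 0.07), Cox7a2 (-0.08 to 0.15), Cox7a2l (-0.13 to 0.14), Ndufa6 (-0.00 to 0.12), Ndufa7 (-0.27 to 0.13), Ndufs1 (-0.12 to 0.04), Ndufv1 (-0.10 to 0.12), Sdhc (-0.14 to 0.11), Uqcr10 (-0.31 to 0.06), Uqcrb (-0.30 to 0.02) and Uqcrfs1 (-0.01 to 0.18). Atp5g1 and Atp5g2 rested on 4 to 38 reads per library, with counting CVs of 22.2% and 18.6% beside WT replicate CVs of 78.4% and 34.2%.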
